A study of Mus musculus with 6 samples.

Results

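The messages for the proteins of the cytosolic ribosome were followed in normal livers and liver tumors of C3H mice, and protein was not measured. A probe was a member if its gene name or current symbol began with Rpl or Rps and a digit, or was Rplp0, Rplp1, Rplp2 or Rpsa, while the Rps6k kinases and names with -ps were left out. This gave 89 genes on 195 probes, out of 34741 gene names on 55681 probes of the array. Of the 89 genes, 46 encode proteins of the large subunit, 31 encode proteins of the small subunit, and 12 are paralogs or bear a related name. One of the 12 is Rps19bp1, named for a protein that binds Rps19, and another is Rps23rg1, a gene derived from Rps23 by its name.

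The samples were 3 normal livers and 3 macroscopic liver tumors with a Ha-ras mutation, all from male C3H/HeN mice aged 74 to 75 weeks. The strain develops liver tumors spontaneously. By the study's methods, the mice were F2 descendants in the control arm of a project on gestational arsenic, kept on a standard diet and tap water, so that neither group was treated. The labels do not say whether a tumor and a normal liver came from the same animal, and nothing beyond the labels shows that the arrays of a group are separate animals. If they are not, the p-values measure technical spread.

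One array of 60-base probes was used for each RNA, labelled with the dye Cy3. The expression value used throughout is the processed signal of a spot divided by the 75th percentile of its array, without a unit. It compares samples for 1 probe, not 1 probe with another. Fold changes are tumor minus normal on the log2 scale, from limma over 24902 probes whose spots stood well above background in all 3 samples of a group, and a gene was called at a Benjamini-Hochberg adjusted p under 0.05. A gene is represented by its brightest tested probe. The share of spots well above background was 44.7% to 48.9% per array, and 0 spots were saturated. All normal livers lay on one slide and all tumors on another, and the effect of the slide cannot be told apart from that of the tissue.

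A ribosome is built from ribosomal RNA and nearly equal numbers of each ribosomal protein. The small subunit reads the messenger RNA and the large subunit joins the amino acids. Messages of ribosomal proteins begin with a run of pyrimidines, the 5′ terminal oligopyrimidine (TOP) motif, through which mTORC1 controls their translation. In liver, the organ with a heavy load of secreted protein, they are among the abundant messages, and growth of a cell requires new ribosomes.

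The probes of the genes that carry the results below are shown first, because 3 oligonucleotides of Rps29, 2 of them overlapping, and 2 of Rps2 measured a fall. The capitals in the first and second sequence mark the 3 positions, of the 42 bases that both probes cover, at which the probes differ. The second probe of Rps12 passed the threshold, while its brighter probe, which represents the gene, did not. Rps4l is the member with the largest fall. All sequences are those of the array design, 5′ to 3′.
Rps29, the 42 bases of probe 1 shared with probe 2: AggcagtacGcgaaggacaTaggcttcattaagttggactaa
Rps29, the 42 bases of probe 2 shared with probe 1: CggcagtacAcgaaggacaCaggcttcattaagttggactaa
Rps29, probe 3: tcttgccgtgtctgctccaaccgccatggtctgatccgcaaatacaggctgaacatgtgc
Rps2, probe 1: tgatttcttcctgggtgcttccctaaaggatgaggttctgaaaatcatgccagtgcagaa
Rps2, probe 2: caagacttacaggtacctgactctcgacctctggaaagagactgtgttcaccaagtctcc
Rps12, probe 2: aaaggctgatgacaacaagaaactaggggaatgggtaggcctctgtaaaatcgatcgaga
Rps4l, the first 30 bases of its only probe: ggggaaggggcgtttacgtttgtttatact

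Whether the genes carry the TOP motif was read from RefSeq starts of GRCm38.p6, which the table gave for 57 of the 77 subunit genes. A run of 8 or more bases that are all C or T lay within 15 bases of a start in 25 of the 57 genes, or 43.9%. Among all 27025 genes with a start in the table the share was 13.9%, and among 69 genes of the mitochondrial ribosome it was 13.0%. On the other strand the run was found in 5.26% of the subunit genes and 15.3% of all genes. The 30 bases around the start are shown for 4 genes that recur below, 2 with the run and 2 without it, the run in capitals. The start of Rps2 and that of Rps12 lie inside the annotated gene, and a missing run says only that it is not in this window.
Rps6, chr4:86857353-86857382, minus strand: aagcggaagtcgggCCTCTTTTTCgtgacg
Rplp2, chr7:141447636-141447665, plus strand: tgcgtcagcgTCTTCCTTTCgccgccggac
Rps2, chr17:24720048-24720077, plus strand: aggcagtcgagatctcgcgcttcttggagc
Rps12, chr10:23787195-23787224, minus strand: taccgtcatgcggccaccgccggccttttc

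Ribosomal protein messages differed little between normal and tumor tissues. Of the 86 genes tested, limma called 3, all of them lower in the tumors: Rps29, Rps2 and Rps4l. In bulk tissue, fewer cells of a type and less RNA per cell cannot be told apart. Over all 18568 genes tested, 34.2% were called, 13.1% higher and 21.0% lower. None of the 46 large subunit genes was called, while 1 of them, Rpl35a, had an unadjusted p under 0.05, with a log2 fold change of -0.26 (limma's adjusted p = 0.111). At an unadjusted p under 0.05, 1 member was higher and 4 were lower, against 16.6% and 29.1% of all genes. The methods' t-test in its unpaired form, after adjustment, also called 3 of the 86, the same genes.

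The members were narrow in their range of change. All 77 subunit genes were well above background on all 6 arrays, and 71 of them changed by less than 0.25 on the log2 scale in either direction. The large subunit genes ran from -0.26 for Rpl35a to 0.15 for Rpl13a, with a median of -0.031, and the small subunit genes from -0.53 for Rps29 to 0.34 for Rps12, with a median of -0.063. Over all genes the median was -0.13. For each of the 77 genes the 95% confidence interval of the fold change lay within 2-fold in both directions, which held for 65.8% of all genes tested. The 77 had bright probes, with a median log2 value of 7.66 to 7.88 on an array against 0.93 to 0.97 over all genes. Their median SD on the log2 scale was 0.080 in the normal livers and 0.12 in the tumors, against 0.16 and 0.18 over all genes. The 65.8% is therefore not a share among genes of like signal. The 3 tumors and the 3 normal livers did not overlap for 13 of the 77, with the tumors lower for 11 and higher for 2. Of all genes, 51.8% had groups that did not overlap, 33.5% with the tumors lower and 18.3% with the tumors higher.

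**Figure D1:**
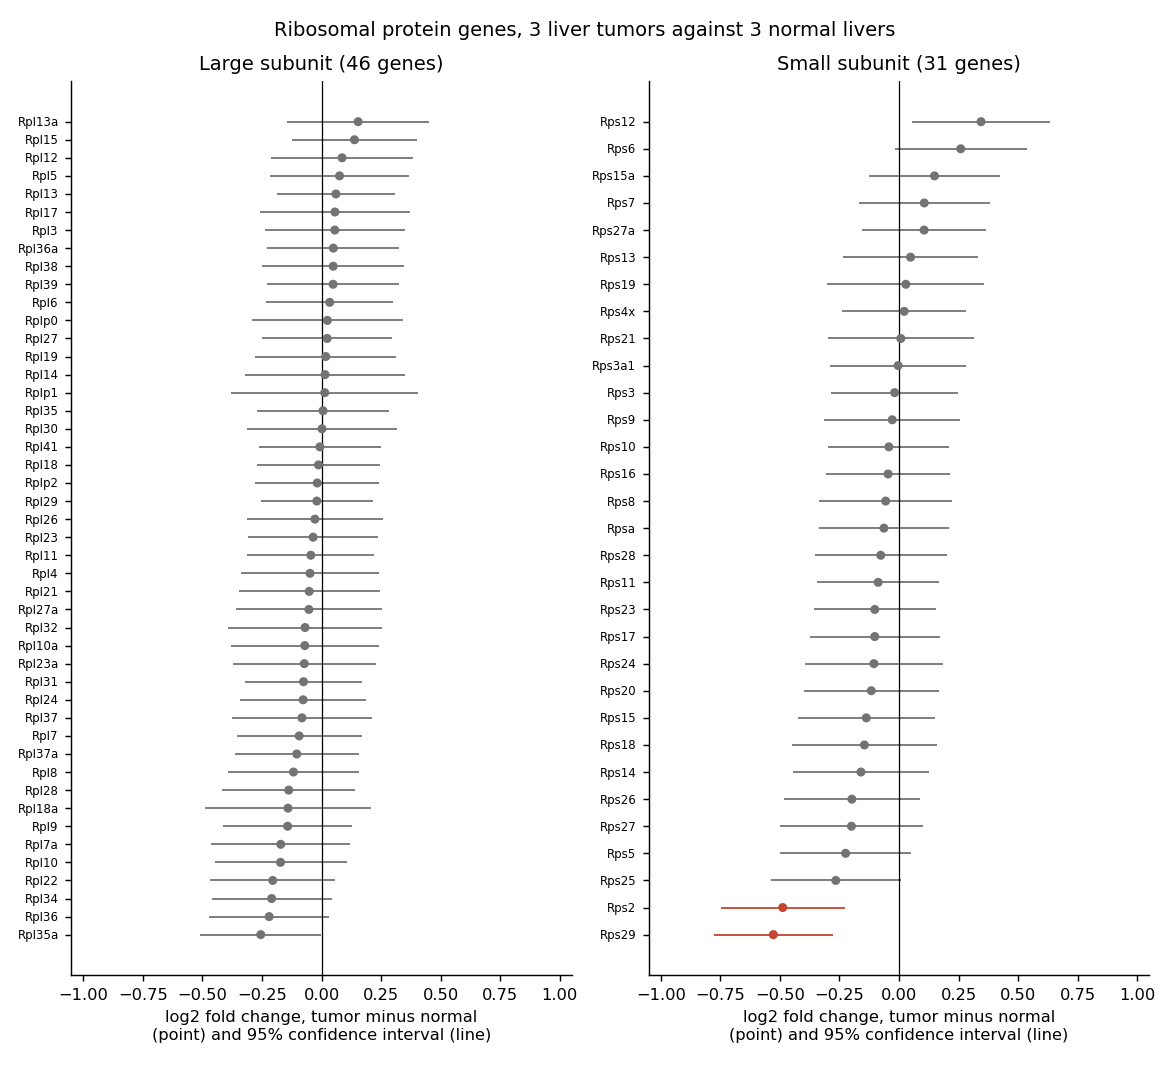
Log2 fold change of each subunit gene, 3 liver tumors minus 3 normal livers, with its 95% confidence interval, large subunit on the left and small subunit on the right. Called genes are red and only Rps29 and Rps2 are called, while the large subunit genes lie between -0.26 and 0.15 (with spike-in scaling neither is called).

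The small median shift has no firm sign. Scaling the arrays by their spike-in controls moved the median of all genes from -0.13 to 0.026 and that of the subunit genes from -0.046 to 0.11. Quantile normalization moved the median of the subunit genes to 0.15, and normexp background correction moved it to 0.044. With spike-in scaling, 2363 genes were called higher and 1579 lower, against 2441 and 3905 with the 75th percentile, 2731 and 3166 with quantile normalization and 2376 and 3393 with normexp. Relative to the median of all genes, the subunit genes stood 0.083 higher with the main scaling, 0.20 with quantile normalization and 0.13 with normexp. Spike-in scaling had to give the same 0.083, because a constant for each array cancels in this difference. It is therefore no separate check of that value.

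Rps29, a small zinc-binding protein of the small subunit, was the member of both subunits with the largest fall. Its expression value (probe A_55_P1958354, gene on chromosome 12 from 69157722 to 69159186) was 629, 608 and 669 in normal livers 1 to 3 and 429, 463 and 431 in tumors 1 to 3. Every tumor was below every normal liver, and the spread within either group was small beside the gap. The log2 fold change was -0.53 (SE 0.10), a ratio of 0.694 (limma's adjusted p = 0.0115). The other probes, shown above, gave -0.51 and -0.55 (limma's adjusted p = 0.0142 and 0.0108), so that all 3 were called. The first and second overlap over 42 bases and differ at 3 of them, so they are not independent measurements. Both cannot match the same message in full, and which messages each probe reached was not tested. By size the fall was not unusual, as 20.6% of all genes had a larger one.

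Rps2, a protein at the entry of the messenger RNA channel, was 186, 190 and 201 in the normal livers and 127, 138 and 146 in the tumors (probe A_55_P2048454, chromosome 17 from 24718121 to 24721927). The groups did not overlap, with a gap between the highest tumor and the lowest normal liver wider than the spread within either group. The log2 fold change was -0.49 (SE 0.11, limma's adjusted p = 0.0170), and the other probe gave -0.56 (SE 0.13, limma's adjusted p = 0.0180). Without normal liver 2, normal liver 3 or tumor 2 the gene was no longer called, with limma's adjusted p between 0.0506 and 0.0574, nor was it with quantile normalization (adjusted p = 0.0855). With spike-in scaling neither Rps2 nor Rps29 was called, at -0.33 and -0.37 (limma's adjusted p = 0.384 and 0.321). Neither was called without a filter (limma's adjusted p = 0.0865 and 0.0653), and the tumors were the lower group in each of these fits. Among the normal livers alone, the mean of the 7 spike-in probes lay from -0.091 to 0.30 around its mean over all arrays.

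Rps12 had the largest positive fold change. Its values were 399, 412 and 430 in the normal livers and 548, 569 and 463 in the tumors, with all tumors above all normal livers. The brighter probe missed the threshold at a log2 fold change of 0.34 (SE 0.12, limma's adjusted p = 0.0708), while the less bright probe, shown above, passed it at 0.43 (SE 0.12, limma's adjusted p = 0.0396). Rps6, the substrate of the S6 kinases downstream of mTORC1, was 158, 165 and 185 in the normal livers and 207, 212 and 188 in the tumors. The groups did not overlap, but the lowest tumor stood close to the highest normal liver, and Rps6 was not called at 0.26 (SE 0.12, limma's adjusted p = 0.132). Rps12 was called higher in 5 other fits, with normexp, with quantile normalization, with a trend in eBayes, with the mean of its probes and without tumor 3 (limma's adjusted p between 0.0159 and 0.0477). Rps6 was called higher with quantile normalization, at 0.49 (limma's adjusted p = 0.0158).

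**Figure D2:**
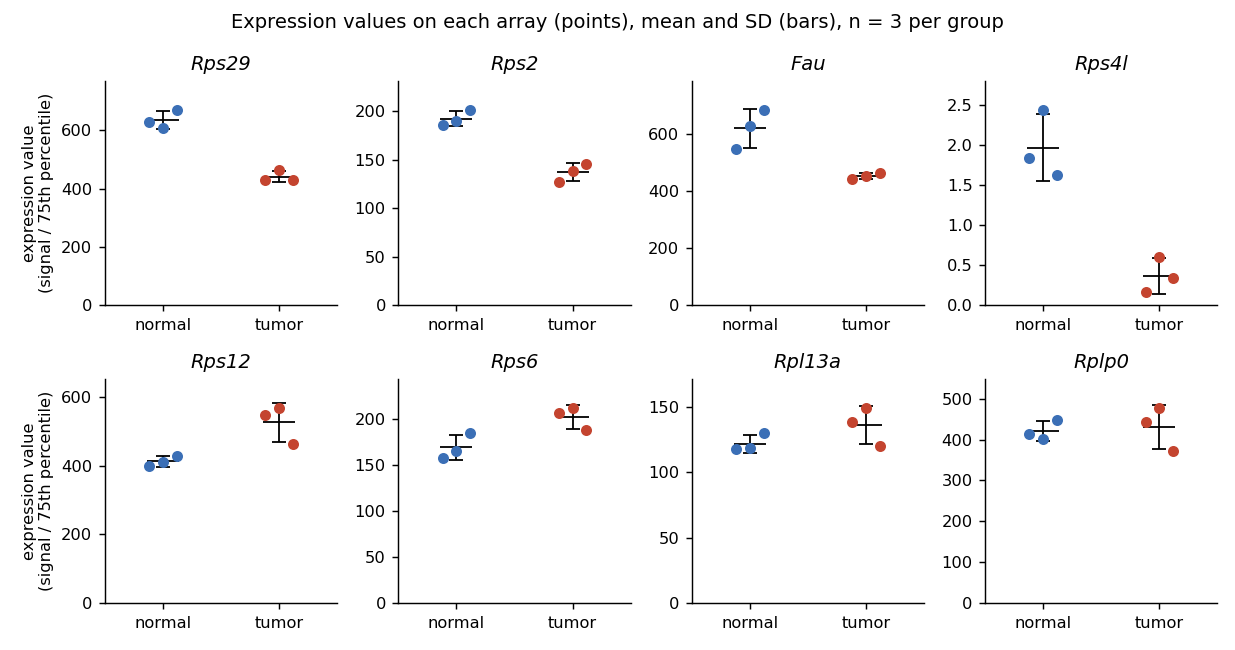
Expression value (processed signal over the array's 75th percentile) of 8 genes on each array, normal livers in blue and liver tumors in red, with the group mean and SD (n = 3); each axis starts at 0. Rps29, Rps2, Fau and Rps4l have all tumors below all normal livers, Rps12 and Rps6 the opposite, and Rpl13a and Rplp0 overlap.

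The messages for the proteins of the stalk, the lateral arm that recruits translation factors to the large subunit, did not differ detectably. Rplp0, the base of the stalk, was 415, 401 and 449 in the normal livers and 442, 477 and 372 in the tumors. Rplp2 was 390 ± 21 in the normal group and 385 ± 24 in the tumor group (SD, n = 3 each). Rplp1 was 247 and 265 in normal livers 1 and 3, since the scanner software had marked the spot of normal liver 2 as an outlier, which was left out, and 257, 294 and 227 in the tumors. In all 3 the groups overlapped. The log2 fold changes were 0.025, -0.018 and 0.014 for Rplp0, Rplp2 and Rplp1, and their 95% confidence intervals lay within 0.41 of 0 on the log2 scale.

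Rpl5 and Rpl11, which with 5S ribosomal RNA bind Mdm2 when ribosome assembly fails, overlapped between the groups. Rpl5 was 58.2, 56.8 and 68.6 in the normal livers and 67.4, 65.0 and 60.6 in the tumors, and Rpl11 was 485 ± 32 and 470 ± 27 (SD, n = 3 each). Rpsa, which also serves as a laminin receptor, was 488 ± 23 and 468 ± 40. Rps19, the gene most often mutated in Diamond-Blackfan anemia, was 61.4 ± 4.1 and 62.9 ± 8.7. Limma's adjusted p for these 4 genes lay between 0.666 and 0.892, and their log2 fold changes between -0.063 and 0.076.

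Rpl13a, which can leave the ribosome to silence inflammatory messages, showed how far a call could depend on the probe. Its brightest probe was 118, 118 and 130 in the normal livers and 139, 149 and 120 in the tumors, at a log2 fold change of 0.15 (limma's adjusted p = 0.380). A dimmer probe was 9.44, 8.53 and 9.35 in the normal livers and 13.3, 13.9 and 11.1 in the tumors, and was called at 0.48 (limma's adjusted p = 0.0305). The third, also dim, gave 0.40 and was not called.

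Over all members, 11 of 187 tested probes were called, or 5.88%, with 3 higher and 8 lower, against 33.1% of all tested probes. The 11 probes belong to 8 genes. Besides Rps29, Rps2, Rps4l, Rps12 and Rpl13a these are Rpl17, higher on 1 of its 7 probes, and Rpl22 and Rps24, lower on a less bright probe each (-0.54 and -0.49) while their brightest probe was not called (-0.20 and -0.11). Probes of a gene can be reached by processed copies elsewhere in the genome, and cross-hybridisation was not tested. None of the genes had probes called in both directions. Of the 58 genes with 2 or more tested probes, the log2 fold changes of the probes lay within 0.25 of each other in 47, with a median range of 0.084.

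The subunit genes moved together from array to array. Relative to each gene's own mean over the normal livers, the median shift of the 77 genes was -0.056, -0.032 and 0.086 on the log2 scale in normal livers 1 to 3 and -0.012, 0.028 and -0.17 in tumors 1 to 3. Normal liver 3 was above the normal mean for 77 of 77 genes. Tumor 3 was the lowest of the tumors for 75 of 77, and the 2 exceptions were Rps2 and Rps29, for which tumor 1 was lowest. These shifts between arrays of 1 tissue were as large as the median difference between the tissues, and a common shift of an array cannot be told apart from its scaling.

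From the 10th to the 90th percentile the genes spread from -0.20 to 0.13 in tumor 1, from -0.13 to 0.20 in tumor 2 and from -0.32 to -0.025 in tumor 3. The median absolute shift was 0.070, 0.081 and 0.17 in the tumors, while over all genes it was 0.41, 0.36 and 0.34. Rps27a was the subunit gene with the most even values among the tumors (400, 412 and 395), and Rps19 and Rplp1 were the subunit genes with the least even ones, with an SD of 0.20 and 0.19 on the log2 scale. Without tumor 3, limma called 4 genes, the same 3 lower and Rps12 higher. When every array was scaled to the median of the 77 subunit genes, an alternative chosen after seeing the data, the same 3 genes were called, Rps29 at -0.54 (limma's adjusted p = 0.0221) and Rps2 at -0.50 (limma's adjusted p = 0.0480).

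**Figure D3:**
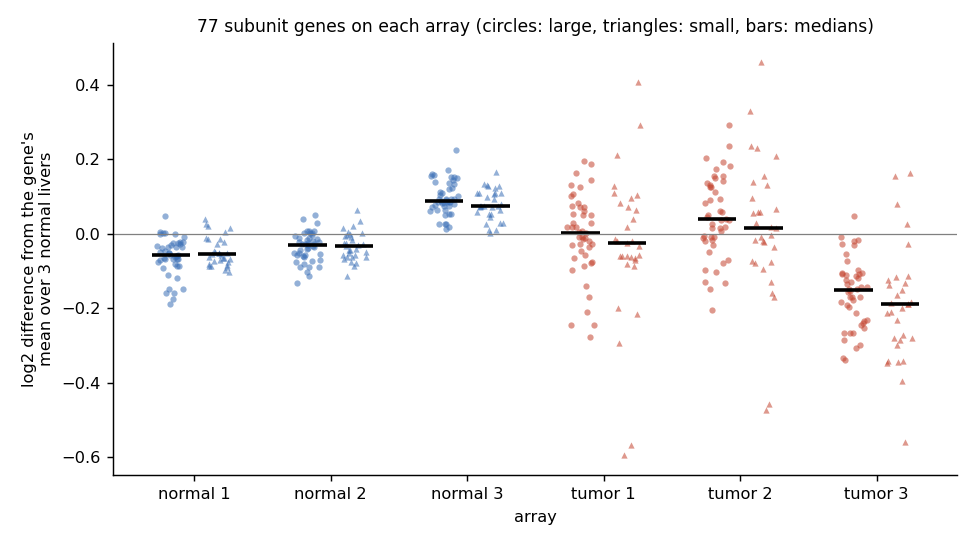
Log2 difference of each of the 77 subunit genes from its own mean over the 3 normal livers (y axis) on each array (x axis), large subunit as circles and small subunit as triangles, with black bars for the medians. The genes shift as a body on normal liver 3, at a median of 0.086, and on tumor 3, at -0.17, and the lowest points in tumors 1 and 2 are Rps29 and Rps2.

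Large and small subunit genes were set against each other within an array, which removes the scaling of the array. The median log2 expression value of the large subunit genes minus that of the small subunit genes was 0.12, 0.056 and 0.098 in the normal livers and 0.20, 0.21 and 0.22 in the tumors. The groups did not overlap, and the means were 0.090 ± 0.031 and 0.21 ± 0.010 (SD, n = 3 each), a difference for which an exact permutation test could not go below 0.1. A difference of medians of levels depends on which genes lie in the middle of each list. With the mean over the genes in place of the median, chosen after seeing the data, the values were -0.036, -0.029 and -0.0038 in the normal livers and 0.0056, 0.0087 and 0.0086 in the tumors, a difference of 0.031. The median of the genes' own shifts, likewise chosen afterwards, gave a difference of 0.025. The groups did not overlap in any of the 3 summaries, while the size ran from 0.025 to 0.12, and Rps29 and Rps2 are among the small subunit genes.

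Some paralogs can replace their parent protein in the ribosome, and each paralog was compared with its parent gene within the array. Rps4l and Rps3a3 are annotated as pseudogenes, and whether any paralog here replaces its parent was not tested. Of 11 pairs on the array, 8 could be measured, and in 3 of them the tumors and the normal livers did not overlap, against 51.8% of all single genes tested. In these 3 an exact two-sided permutation test gave p = 0.1, the smallest that 3 against 3 samples allow. Adjustment over 8 pairs cannot lower it. Rpl10l, Rpl39l and Rpl3l, paralogs known from testis and muscle, were not well above background on any array, so that nothing can be said of their level here.

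The largest of these differences was that of Rps4l, annotated as a transcribed pseudogene of GRCm38.p6 on chromosome 6 from 148354656 to 148355596 and named Rps4y2 in the array design. Its expression value was 1.84, 2.44 and 1.63 in the normal livers and 0.160, 0.602 and 0.335 in the tumors (probe A_55_P2001628). All tumors were far below the normal livers but differed among themselves by more than 3-fold. The log2 fold change was -2.61 (SE 0.46, limma's adjusted p = 0.00828), and 1.02% of all genes had a larger fall. With normexp it was -1.60, still called. Rps4x, its parent on the X chromosome, was 121 ± 1 and 123 ± 10 (SD, n = 3 each). Rps4l minus Rps4x changed by -2.63 on the log2 scale (exact permutation p = 0.1, n = 3 per group).

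The value of Rpl22l1 relative to Rpl22 was higher in the tumors. Rpl22, an RNA-binding protein that can repress the message of its paralog, was 145, 151 and 159 in the normal livers and 131, 141 and 123 in the tumors, and Rpl22l1 was 86.2, 86.6 and 90.7 in the normal livers and 109, 101 and 86.7 in the tumors. Neither was called (limma's adjusted p = 0.194 and 0.340). The difference of the pair on an array was higher in every tumor than in every normal liver, with a change of 0.37 (exact permutation p = 0.1, n = 3 per group). Rps3a3, annotated as a pseudogene, minus Rps3a1 changed by 0.18 with the same p. The signal of the pseudogene's probe may include the near-identical parent message, which was not tested.

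**Figure D4:**
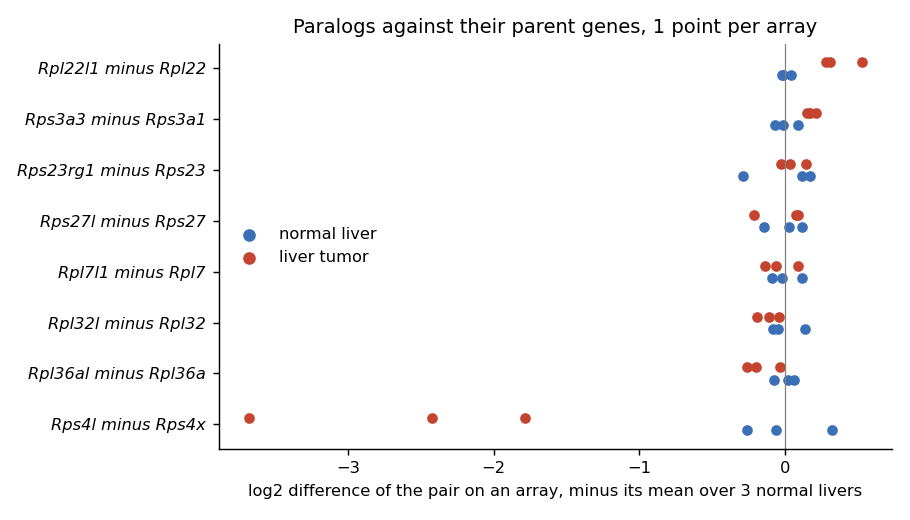
Log2 difference between a paralog and its parent gene on each array, minus the mean of that difference over the 3 normal livers, with normal livers in blue and liver tumors in red. Rps4l lies more than 1 log2 unit lower in each tumor, Rpl22l1 and Rps3a3 lie higher, and the other pairs overlap.

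The other 5 pairs overlapped between the groups. Rpl7l1 minus Rpl7, Rps27l minus Rps27 and Rps23rg1 minus Rps23 changed by -0.037, -0.015 and 0.049, Rpl36al minus Rpl36a by -0.17 and Rpl32l minus Rpl32 by -0.12. Rps27l, which p53 activates, was 185, 206 and 193 in the normal livers and 159, 184 and 161 in the tumors, the highest tumor just below the lowest normal liver, and was not called at -0.22 (limma's adjusted p = 0.194). Without tumor 3, the count of pairs that did not overlap went from 3 to 5. Leaving out an array can only keep or raise this count, so the rise shows nothing about tumor 3.

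Fau, which encodes the small subunit protein eS30 fused to a ubiquitin-like domain, does not bear an Rps name and was not a member. Its expression value was 546, 629 and 682 in the normal livers and 442, 452 and 462 in the tumors. The groups did not overlap, and the log2 fold change was -0.45 (SE 0.12, limma's adjusted p = 0.0317). With normexp, quantile, spike-in and subunit gene scaling it was not called (adjusted p between 0.0567 and 0.481).

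The mitochondrial ribosome, which translates the messages of the mitochondrial genome, was called about as often as the array as a whole. Its calls were more one-sided. Of 77 tested genes of mitochondrial ribosomal proteins, 24 were called lower and 2 higher, or 33.8%, with a median log2 fold change of -0.31. Over all genes 34.2% were called, 21.0% lower and 13.1% higher. All tumors were below all normal livers for 47 of the 77 and above for 4, against 33.5% and 18.3% of all genes. Mrpl14 went from 150 ± 7 to 77.9 ± 8.2 (SD, n = 3 each), a log2 fold change of -0.95 (limma's adjusted p = 0.00309), and Mrpl15 from 28.7 ± 1.5 to 16.9 ± 3.2, a change of -0.78 (limma's adjusted p = 0.0146). The median stayed below 0 with each scaling, between -0.32 and -0.15, but with spike-in scaling 1 gene was called lower and 0 higher.

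Of 40 genes of ribosome biogenesis, 12 were called lower and 0 higher, against 21.0% lower and 13.1% higher over all genes. The median was -0.32, and with spike-in scaling 3 were called lower. Gtpbp4, a GTPase of large subunit assembly, fell from 2.06 ± 0.11 to 1.06 ± 0.04 (SD, n = 3 each), at -0.97 (limma's adjusted p = 0.00173). Rrs1, which brings the 5S particle to the large subunit, fell by 0.94 on the log2 scale, Heatr1, a factor of the small subunit processome, by 0.91, and Nop16 by 0.85 (limma's adjusted p between 0.00722 and 0.0134). All but Nop16 were called lower with every scaling. Of 10 tested genes of RNA polymerase I and its factors, Ubtf, the factor that opens ribosomal DNA for transcription, was the one called. It was 450, 492 and 534 in the normal livers against 903, 724 and 705 in the tumors, which made a log2 fold change of 0.65 (SE 0.14, limma's adjusted p = 0.0155), and it was called with every scaling.

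Of 15 translation factors whose messages are known to carry the TOP motif, limma called 0, 1 had an unadjusted p under 0.05, and the median was -0.074. Of 16 genes of mTORC1 and the S6 kinases, 3 were called lower and 1 higher, or 25%, below the 34.2% of all genes. Rps6kb1, the main S6 kinase, was 14.6, 17.1 and 17.2 in the normal livers and 10.4, 12.2 and 11.8 in the tumors, at -0.51 (limma's adjusted p = 0.0236). Rps6kb2, its relative, was at -0.49 and Rheb, the GTPase that activates mTORC1, at -0.43 (limma's adjusted p = 0.0276 and 0.0381). Rps6ka3, a kinase of the ERK pathway that phosphorylates Rps6 too, was 0.277, 0.313 and 0.285 in the normal livers and 0.638, 0.561 and 0.540 in the tumors, and was called higher at 0.99 (SE 0.12, limma's adjusted p = 0.00238). With spike-in scaling Rps6kb1, Rps6kb2 and Rheb were not called, and with subunit gene scaling neither Rps6kb2 nor Rheb was. Rheb was not called with normexp or quantile normalization either (adjusted p = 0.0520 and 0.0507), while Rps6ka3 was called with every scaling. With normexp the log2 fold change of Rps6ka3 was 0.50.

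**Figure D5:**
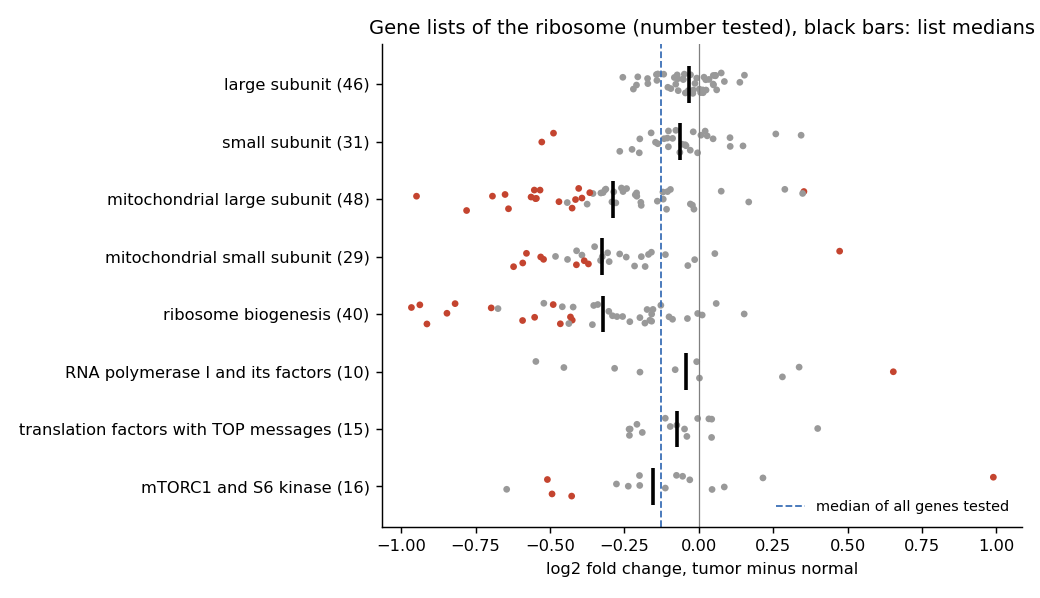
Log2 fold change of each tested gene in 8 lists of the ribosome and its control, tumor minus normal, with called genes in red, list medians as black bars and the median of all genes tested as a dashed line at -0.13. The cytosolic subunits sit close to 0 with 2 genes called, and the mitochondrial subunits and ribosome biogenesis reach further down, to medians between -0.29 and -0.32.

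Markers of several cell types differed between the tissues. The summed expression values given here run over all markers of a list on the array, tested or not, and are carried by the brightest probes. All 13 hepatocyte markers were well above background on all arrays, and their median log2 fold change was -0.11. Among them 1 was called higher, Apoa1 at 0.90, and 1 lower, Cps1 at -1.48 (limma's adjusted p = 0.00565 and 0.00453). The sum of the 13 was 12688 to 14096 in the normal livers and 12365 to 12991 in the tumors. Of 9 tested macrophage markers 6 were called lower, with a sum of 83.6 to 134 in the normal livers and 43.6 to 69.0 in the tumors, and Clec4f, the marker of Kupffer cells, was at -1.84. Of 9 stellate cell and fibroblast markers 2 were called higher and 4 lower, with sums of 86.8 to 104 and 29.5 to 49.3, while the median log2 fold change of the 9 was 0.29. Of 10 lymphocyte markers 5 were tested and 1 was called higher, with sums of 66.5 to 70.5 and 142 to 245. That gene was Cd4, at 58.8 to 60.9 and 134 to 235, while the median log2 fold change of the 5 was 0.029, and Cd8a did not pass the background on any of the arrays. Of 8 endothelial markers 1 was called higher and 2 lower, with sums of 105 to 119 and 80.8 to 90.2. Limma called 0 of 4 tested neutrophil markers, 1 at an unadjusted p under 0.05, and 0 of 4 tested cholangiocyte markers, 0 at an unadjusted p under 0.05. Their sums were 146 to 167 and 130 to 180 for neutrophils, without Mmp9 on any array, and 2.33 to 2.93 and 1.89 to 2.19 for cholangiocytes. Of 6 proliferation genes well above background in every sample 5 were called higher, Mki67 at 4.16, or 2.97 with normexp. Over the 12 tested proliferation genes the median was 3.06, or 1.55 with normexp, and 11 were called higher in both fits. The sums over all 14 were 13.4 to 15.3 and 34.2 to 47.5. The part of cell composition in the results above was not tested.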

How the data were processed

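Total RNA of 3 normal livers and 3 liver tumors was measured on 1-color Agilent arrays. The authors deposited the Feature Extraction output (version 10.7.3.1 by the file headers, 12.0.3.1 by the labels), with a background-subtracted processed intensity for every spot, and a table in which that intensity is given as a ratio to the array's 75th percentile. From the deposited intensities, log2 values scaled to the 75th percentile over all spots were computed. Control and outlier spots were left out, spots of a probe were averaged, and a probe whose spots stood well above background in all 3 samples of a group was tested with limma 3.58.1 (lmFit, eBayes, two-sided) in R 4.3.3, with Benjamini-Hochberg adjustment over all 24902 probes. Tables were made in Python 3.11.15 (numpy 2.4.6, pandas 2.3.3), figures in matplotlib 3.10.9, and exact permutation tests in scipy 1.17.1 were used for pairs of genes. The fit was tested on simulated data.

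Gene names and positions are from RefSeq of GRCm38.p6, matched by accession for 27235 probes, by symbol for 3581 and by synonym for 565, and 24300 kept the name of the array design. Sequences are the probe column of the deposited files and RefSeq start sites of the same assembly.

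The members and lists were chosen with earlier results of these data known. Named genes are the stalk proteins, Rpsa, Rps6, Rpl5, Rpl11, Rps19, Rpl13a, called subunit genes, paralogs and parents, Fau, up to 4 called genes of each other list with the largest change, and the members with the largest and smallest spread among the tumors. Rps12, Rpl35a and genes for which only a dimmer probe was called were named after their values were seen.

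The labels pair no samples, so the replicate numbers were not taken as pairs. Alternatives were normexp with an offset of 50, quantile normalization, spike-in scaling, no filter, a filter on all 6 arrays, the deposited ratios, a block for the replicate number, the mean over the probes of a gene, a trend in eBayes, the methods' t-test on log2 values unpaired and paired, and leaving out each array. The methods name a paired t-test.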

Additional observations from a re-analysis of the deposited data

How the results depend on the processing

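Of the 86 genes, 3 were called. The count was 5 with a trend in eBayes and with the mean of a gene's probes, 4 with normexp (1 higher and 3 lower), 8 with quantile normalization (6 higher and 2 lower), 1 without a filter and 1 with spike-in scaling, that of Rps4l, and it ran from 2 to 4 when an array was left out. The replicate numbers were not taken as pairs, since the labels pair no samples. Deviations of same-numbered arrays correlated at 0.066, 0.18 and 0.055, and those of differently numbered arrays at -0.20 to 0.10. With 3 arrays in each group these correlations cannot decide whether the samples are paired. With the replicate number as a block limma called 3 genes. The methods' t-test in its paired form called 0 after adjustment, as of all genes, and 5 at an unadjusted p under 0.05, and in its unpaired form 13 at an unadjusted p under 0.05. Over all genes, 6346 were called, against 3942 with spike-in scaling and 3501 without a filter.

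The median of the large subunit genes was -0.031. It was 0.055 with normexp, 0.17 with quantile normalization and 0.12 with spike-in scaling, and between -0.078 and 0.026 when an array was left out. That of the small subunit genes was -0.063, with 0.13 for quantile normalization, 0.091 for spike-in scaling, and -0.12 to -0.0026 when an array was left out. The difference between the groups in large minus small subunit was 0.12. It was 0.16 with the mean of a gene's probes, 0.054 with normexp, 0.086 with quantile normalization, 0.031 with the mean over genes and 0.025 with the median of gene shifts, and between 0.11 and 0.14 when an array was left out. The paralog pairs that did not overlap numbered 3 to 5 when an array was left out, which can only keep or raise that count. For single genes and pairs, 631 values kept their side of the threshold or stayed within the spread between arrays, 6 moved, 4 passed the threshold and 11 missed it, and the cause was not tested.

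Arrays number 3 in each group, which limits the precision, and each tissue lies on 1 slide. No probe of the members was saturated.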
